A study of Rattus norvegicus with 90 samples.

Results

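The sestrins and a group of p53-linked growth arrest genes were followed in AR42J cells, a line from a rat pancreatic tumour with acinar features that carries the receptor for the stomach hormone gastrin. The 7 listed genes were Sesn1, Sesn2, Sesn3, Mdm2, Ccng1, Btg2 and Tp53inp1, and the brightest probe annotated with each symbol stood for the gene. Probes were found for 6 of these 7, each gene with 1 probe, among 13337 named genes on the array. Btg2 has no probe under that symbol in the annotation used here and is not analysed here.

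Total RNA was hybridised to Illumina bead arrays, and 90 arrays were used. The groups were cells given gastrin with cycloheximide, an inhibitor of protein synthesis (10 arrays), gastrin alone (34 arrays), cycloheximide alone (9 arrays) and untreated control cells (35 arrays). The arrays came in 6 batches. Batch 1 had gastrin and control cells at 14 h, and batches 2 and 3 followed such cells from 0 h (controls) or 0.25 h (gastrin) to 14 h. Batches 4 and 5 had all 4 conditions at 1, 2, 4 and 6 h, and batch 6 had them at 4 h. Array titles of batches 4 and 5 at 1, 2 and 6 h end in a number and form a numbered series. The 4 h arrays of batches 4 to 6 lack that number and form a plain series. Batches 4 and 5 also have a second set of gastrin and control arrays at 1 h in the plain series. The labels do not say what sets these title series apart. The doses are not given in the sources used here. No label says that the batches were grown separately, and the p-values therefore describe the spread among these arrays, part of which may be technical. The 2 further arrays, of batch 3 at 12 h, carry labels that contradict each other and entered no comparison.

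Sestrins are stress-induced proteins that restrain the growth kinase mTORC1 through the GATOR complexes and AMPK, as worked out mainly in human and mouse cells. Sesn1 is a p53 and FOXO target, Sesn2 also answers to ATF4 and NRF2, and Sesn3 is best known as a FOXO target. Mdm2 is the ubiquitin ligase that destroys p53, and its gene is a p53 target. Ccng1 encodes cyclin G1, a p53 target that acts on Mdm2 through a protein phosphatase. Tp53inp1 encodes a nuclear stress protein that supports p53 activity and autophagy, and Btg2 binds the CCR4-NOT deadenylase and slows the cell cycle.

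The promoters of the 4 genes with the most changes below are shown because p53 or FOXO control is described for each of them, chiefly in human and mouse cells, while their changes fell at different times. Each run is RefSeq sequence of build GRCr8, from 250 bases before to 50 bases after the annotated start, in the direction of transcription, with motif matches in capitals. The Sesn1 and Mdm2 starts in this table lie inside the spans of their genes, so other starts exist for both.
Sesn1, chr20:46948469-46948768, plus strand: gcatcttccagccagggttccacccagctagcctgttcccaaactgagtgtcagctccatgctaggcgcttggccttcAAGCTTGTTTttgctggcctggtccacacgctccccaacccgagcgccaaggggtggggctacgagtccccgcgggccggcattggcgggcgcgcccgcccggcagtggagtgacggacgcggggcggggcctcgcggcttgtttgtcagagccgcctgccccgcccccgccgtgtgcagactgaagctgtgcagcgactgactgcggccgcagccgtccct
Sesn3, chr8:19415177-19415476, plus strand: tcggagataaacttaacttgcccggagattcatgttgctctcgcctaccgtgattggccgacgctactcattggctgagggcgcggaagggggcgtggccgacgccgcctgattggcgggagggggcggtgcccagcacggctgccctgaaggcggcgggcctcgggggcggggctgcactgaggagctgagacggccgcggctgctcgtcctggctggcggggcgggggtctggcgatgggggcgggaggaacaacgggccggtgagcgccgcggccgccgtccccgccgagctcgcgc
Mdm2, chr7:55200742-55201041, minus strand: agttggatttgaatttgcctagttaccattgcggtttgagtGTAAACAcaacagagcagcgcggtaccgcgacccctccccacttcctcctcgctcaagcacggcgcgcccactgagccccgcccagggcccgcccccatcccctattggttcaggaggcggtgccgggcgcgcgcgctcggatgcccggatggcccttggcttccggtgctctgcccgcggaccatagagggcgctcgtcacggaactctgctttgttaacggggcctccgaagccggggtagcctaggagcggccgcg
Ccng1, chr10:25684827-25685126, minus strand: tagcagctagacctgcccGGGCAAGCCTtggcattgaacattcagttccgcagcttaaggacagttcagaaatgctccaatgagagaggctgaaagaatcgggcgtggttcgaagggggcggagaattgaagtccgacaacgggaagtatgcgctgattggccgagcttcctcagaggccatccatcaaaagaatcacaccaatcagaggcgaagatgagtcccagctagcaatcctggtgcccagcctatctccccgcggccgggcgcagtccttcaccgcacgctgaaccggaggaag
The capitals mark a p53 half-site in Sesn1, first base at -172 from the start, and in Ccng1, first base at -232, and the forkhead motif GTAAACA in Mdm2, first base at -209. Both strands were searched for 5 motifs, with no overlap among the matches shown. Of 33469 promoters of this length, 7.98% held a p53 half-site, 3.78% GTAAACA, 3.98% the ATF4 motif TGATGNAA, 1.83% the CRE motif TGACGTCA and 6.42% the E-box CACGTG. The Sesn3 and Sesn2 windows held none of the 5, and the Btg2 window, on chromosome 13, held TGACGTCA at -201. Tp53inp1 has no entry in the table.

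All levels are on the deposited log2 scale, whose array medians lay between 6.40 and 6.41. The Ccng1 probe had a mean level of 11.31 over all arrays and was brighter than 95.5% of probes, Mdm2 9.74 and Sesn1 9.58. Sesn3 at 7.49 and Tp53inp1 at 6.74 were lower, and Sesn2 at 6.26 lay in the dimmer part of the array, above 39.8% of probes. Acinar markers bore out the label of the cells, with Cpa1 at 14.52, Cela1 at 14.31 and Ptf1a at 13.55, and the gastrin receptor Cckbr at 10.39, although the acinar gene Cpb1 read 6.11. Of the 7 neuroendocrine markers, Chgb read 13.09, Syp 9.43, Chga 8.37 and Scg2 7.03, while the hormone genes Ins1, Ins2 and Gcg, at 6.13, 6.12 and 6.21, lay below the array medians. The ductal Krt19 and Krt7 read 9.49 and 7.53. The fibroblast markers measured, Col1a1, Col1a2, Col3a1 and Pdgfra, had mean levels of 6.01 to 6.13, and Ptprc and Cdh5, of immune and endothelial cells, 6.05 and 5.98. An array score was defined as the projection on the difference between the 2 h controls of batches 4 and 5 and their other controls. It exceeded 0.25 of the mean score of those 2 controls on 17 arrays, called arrays of high score here. They include the gastrin arrays of batches 2 and 3 at 1, 1.5 and 2 h, of batch 2 at 10, 12 and 14 h and of batch 3 at 14 h. For the 6 genes, values without the arrays of high score are given where a call differs. The lists of other genes below are given only with these arrays included. Scores of the plain series ran from -0.85 to -0.31, against -0.16 to 0.68 in the numbered series of batches 4 and 5. The limit marks high scores only, so it does not mark this split.

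**Figure D1:**
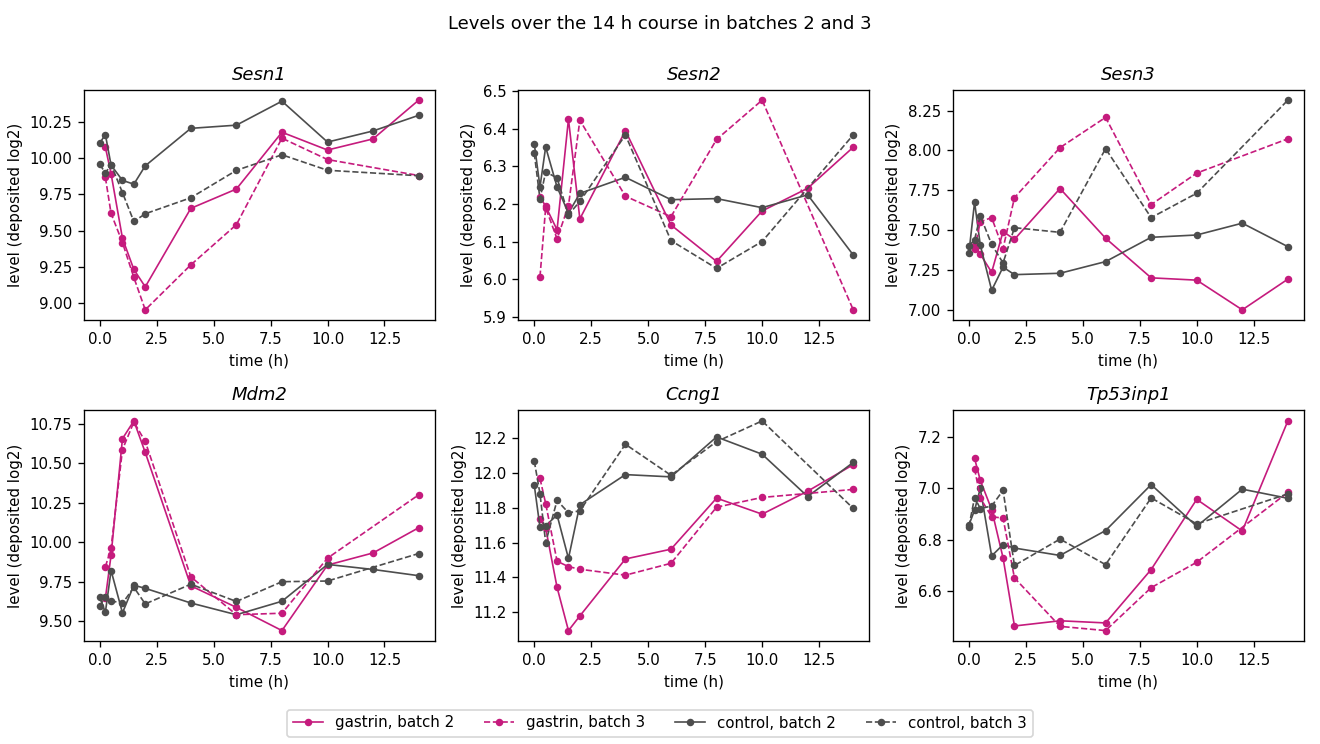
Levels on the deposited log2 scale (vertical axes) against time in hours (horizontal axes) in batches 2 (solid) and 3 (dashed), with gastrin in magenta and control in grey, 1 array per point. Sesn1 with gastrin reached 9.11 in batch 2 and 8.95 in batch 3 at 2 h, and Mdm2 with gastrin reached 10.77 and 10.76 at 1.5 h.

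Within 2 h of gastrin, Sesn1 fell and Mdm2 rose, while no change in Sesn2, Sesn3, Ccng1 or Tp53inp1 passed the test. Gastrin samples were set against the control of their own batch and time in a limma fit over all 22523 probes, with Benjamini-Hochberg adjustment and a threshold of 0.05. Between 0.5 and 2 h, 2 of the 6 measured genes were called, beside 9.92% of all probes. The pairs of this window numbered 12 and came from batches 2 to 5. A bulk array cannot tell fewer cells with a transcript from less of it per cell, and all changes are changes in share of the RNA measured.

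Sesn1 had levels with gastrin of 8.21 to 9.89 with a median of 9.20, against 8.22 to 9.96 with a median of 9.78 in controls. The groups overlapped, but gastrin was the lower in 12 of 12 pairs. In batch 2 the gastrin arrays read 10.08, 9.89, 9.45, 9.23 and 9.11 at 0.25, 0.5, 1, 1.5 and 2 h, against 10.16, 9.95, 9.85, 9.82 and 9.95 in controls. In batch 3 they read 9.87, 9.62, 9.42, 9.18 and 8.95, against 9.90, 9.96, 9.76, 9.56 and 9.62. The gap widened with each time from 0.5 to 2 h in batch 2, and it was widest at 2 h in both batches. Sesn1 fell by 0.40 ± 0.08 on the log2 scale (SE, n = 12 pairs), 0.759-fold, with an adjusted p of 0.000674 in limma. In batches 4 and 5 the differences were -0.69 and -0.41 at 1 h, but -0.015 and -0.024 at 2 h, where the control arrays themselves were low at 8.22 and 9.26, against 9.35 to 10.05 in the other controls of those batches. Both of these 2 h controls have high array scores. Leaving out the arrays of high score left 4 pairs and a difference of -0.38 with an adjusted p of 0.435, and the call was also lost without batch 2 (-0.36, adjusted p 0.0691) and without batch 3 (-0.38, adjusted p 0.0930).

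Mdm2 read 10.65, 10.77 and 10.57 with gastrin in batch 2 at 1, 1.5 and 2 h, against 9.55, 9.73 and 9.71 in controls. In batch 3 it read 10.59, 10.76 and 10.64 with gastrin, against 9.61, 9.72 and 9.61 in controls. Gastrin and control arrays of these 2 batches did not overlap at these times, and the 6 differences ran from 0.86 to 1.1. At 0.5 h the differences were smaller, 0.097 in batch 2 and 0.33 in batch 3. Over the 12 pairs Mdm2 rose by 0.57 ± 0.08 (SE), 1.48-fold, with an adjusted p of 1.24e-05 in limma, and it was higher in 10 of 12 pairs.

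The Mdm2 level was 9.76 to 10.77 with a median of 10.09 on the 17 arrays of high score, against 8.82 to 10.10 with a median of 9.65 on the other 73. The 17 include the gastrin arrays of batches 2 and 3 at 1 to 2 h and the 2 h controls that define the score. This contrast across treatments therefore cannot tell the score from gastrin. In batches 4 and 5 Mdm2 was 0.21 and 0.42 higher with gastrin at 1 h but -0.15 and -0.13 at 2 h, where the untreated cells stood at 9.97 and 9.76, against 8.82 to 9.31 in the other controls of those batches. All 6 pairs of batches 2 and 3 at 1 to 2 h hold an array of high score. Without such arrays the difference was 0.27, higher in 4 of 4 pairs, with an adjusted p of 0.158. With the score as a covariate it was 0.45 with an adjusted p of 2.14e-07 in limma, and it stayed called without any 1 batch, between 0.43 and 0.68. The part of whatever sets the score in the rise was not tested.

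Ccng1 at 0.5 to 2 h differed by -0.18 ± 0.08 (SE, adjusted p 0.168 in limma), which did not pass. It was lower in 6 of 6 pairs at 1 to 2 h of batches 2 and 3, with differences of -0.64 to -0.31, and in batches 2 and 3 alone the window gave -0.28 with an adjusted p of 2.85e-06 in limma. Each of these 6 pairs holds a gastrin array of high score. In batches 4 and 5 the differences were -0.30 and 0.001 at 1 h and 0.32 and 0.10 at 2 h. The 2 h controls of batches 4 and 5, which define the score, read 10.15 and 10.77 for Ccng1. The other controls of those batches read 10.76 to 11.68. The part of the score in the Ccng1 differences was not tested. Leaving out batch 4 gave -0.21 and an adjusted p of 0.0301. Sesn3 differed by 0.11 (95% interval 0.0071 to 0.21), Sesn2 by 0.10 (-0.018 to 0.23) and Tp53inp1 by -0.049 (-0.13 to 0.032), and none of these passed. Sesn2 was higher with gastrin in 4 of 4 pairs of batches 4 and 5, by 0.15 to 0.45, and in 3 of 8 pairs of batches 2 and 3.

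**Figure D2:**
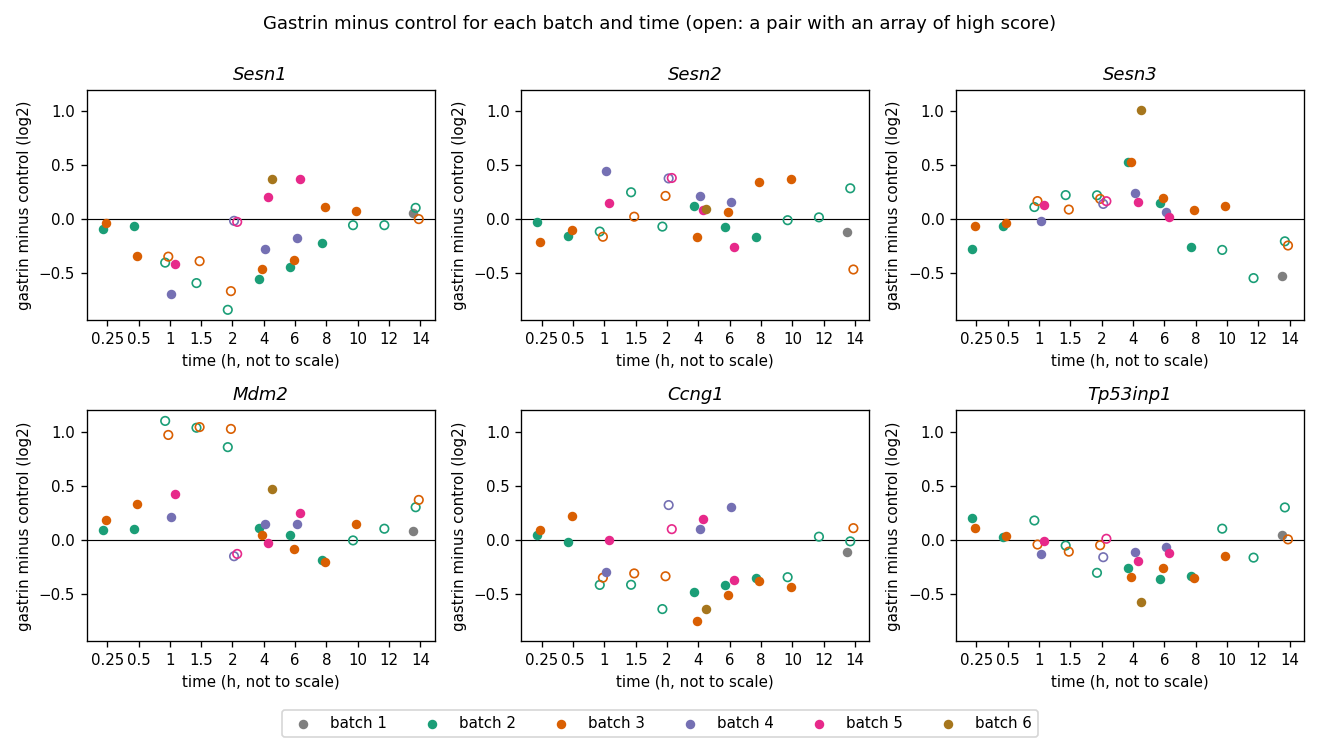
Gastrin minus control for each batch and time on the deposited log2 scale (vertical axes), against time in hours, evenly spaced (horizontal axes). Each point is 1 pair of a batch, and open points mark pairs that hold an array of high score. Tp53inp1 lies below 0 in all 11 pairs at 4 to 8 h, whereas Ccng1 ranges from -0.75 to 0.30 there.

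From 4 to 8 h after gastrin, Tp53inp1 and Ccng1 fell and Sesn3 rose, while Sesn1 and Mdm2 no longer passed the test. In this window 3 of 6 genes were called, beside 12.7% of all probes, over 11 pairs of batches 2 to 6, none with an array of high score.

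Tp53inp1 ranged with gastrin from 6.25 to 7.21 with a median of 6.48, against 6.32 to 7.79 with a median of 6.74 in controls. The groups overlapped across batches, yet gastrin was the lower in 11 of 11 pairs, with differences of -0.58 to -0.066. Tp53inp1 fell by 0.27 ± 0.04 (SE), 0.830-fold, with an adjusted p of 1.75e-05 in limma. Its median with gastrin lay close to the array medians of 6.40 to 6.41, so this fold need not be a ratio of intensities. The mean difference was -0.32 over the 6 pairs of batches 2 and 3 and -0.21 over the 5 pairs of batches 4 to 6. Batch 6 at 4 h stood apart, at 7.21 with gastrin and 7.79 in its control, against 6.42 to 6.53 with gastrin and 6.53 to 6.80 in controls of the other batches at that time. Without batch 6 the change was -0.24, and it stayed called without any 1 batch, with adjusted p of at most 0.0105.

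Ccng1 read 11.51, 11.56 and 11.86 with gastrin in batch 2 at 4, 6 and 8 h, against 11.99, 11.98 and 12.21 in controls. In batch 3 it read 11.41, 11.48 and 11.80 with gastrin, against 12.16, 11.99 and 12.18 in controls. The gastrin arrays of these batches all lay below every control. Over 11 pairs Ccng1 fell by 0.30 ± 0.08 (SE), 0.812-fold, with an adjusted p of 0.0104 in limma. Batches 4 to 6 did not share one direction, at 0.099, 0.20 and -0.64 at 4 h in batches 4, 5 and 6 and at 0.30 and -0.37 at 6 h in batches 4 and 5. The call was lost without batch 2 (-0.26, adjusted p 0.202) and without batch 3 (-0.21, adjusted p 0.383).

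Sesn3 at 4 h read 7.76, 8.02, 7.60, 7.17 and 7.93 with gastrin in batches 2 to 6, against 7.23, 7.49, 7.36, 7.01 and 6.91 in controls. The arrays overlapped between batches, and each gastrin array was above its own control, by 0.16 to 1.01. At 6 h the 4 differences were 0.019 to 0.20, and at 8 h they were -0.26 in batch 2 and 0.082 in batch 3. Over 4 to 8 h Sesn3 rose by 0.25 ± 0.05 (SE), 1.19-fold, higher in 10 of 11 pairs, with an adjusted p of 0.00116 in limma. Batch 6 gave the largest difference. Without any 1 batch the rise stayed called, between 0.17, without batch 6, and 0.29, with adjusted p of at most 0.0494. With batch and time as additive blocks the call was lost, at an adjusted p of 0.0669 in limma.

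Sesn1 at 4 to 8 h differed by -0.13 (95% interval -0.29 to 0.034, adjusted p 0.398). It was lower in 5 of 6 pairs of batches 2 and 3, and these batches alone gave -0.32 with an adjusted p of 7.90e-06 in limma, while batches 4 to 6 ran from -0.27 to 0.38. Mdm2 differed by 0.066 (-0.10 to 0.24) and Sesn2 by 0.039 (-0.089 to 0.17), and neither passed.

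At 10 and 14 h none of the 6 genes was called, beside 7.32% of all probes, over 5 pairs of batches 1 to 3. Sesn3 was lower in 4 of 5 pairs, with a difference of -0.23 ± 0.08 (SE) and an adjusted p of 0.0778 in limma. In batch 2 it read 7.19 and 7.19 with gastrin at 10 and 14 h, against 7.47 and 7.40 in controls. In batch 3 it read 7.86 and 8.07 with gastrin, against 7.73 and 8.32, and in batch 1 at 14 h 6.81 with gastrin, against 7.33. Without batch 6, which has no arrays at these times but adds to the common estimate of spread, the adjusted p was 0.0269. Sesn1 was back near its controls, at a difference of 0.038 (95% interval -0.20 to 0.28). Ccng1 was at -0.16 (-0.40 to 0.087), Mdm2 at 0.18 (-0.074 to 0.43) and Tp53inp1 at 0.061 (-0.064 to 0.19). In batches 2 and 3 alone, Mdm2 was called higher (0.20, adjusted p 0.00949 in limma) and Ccng1 lower (-0.17, adjusted p 0.0464). The gastrin arrays of batch 2 at 10 and 14 h and of batch 3 at 14 h have high scores, and their controls do not. The part of the score in these 2 calls was not tested.

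The late effect, at 10 and 14 h, was also set against the early one, at 0.5 to 2 h. Here 1 of 6 genes was called, Sesn3, beside 3.69% of all probes. Its gastrin effect was lower late than early by -0.34 ± 0.09 (SE), with an adjusted p of 0.0382 in limma. This call was lost without batch 1 (-0.26, adjusted p 0.177), without batch 2 (-0.32, adjusted p 0.486), and without batch 3 (-0.45, adjusted p 0.172). Leaving out the high-score arrays gave -0.20 and an adjusted p of 0.700, and additive blocks an adjusted p of 0.432. Sesn1 was 0.43 ± 0.14 higher late than early (adjusted p 0.0866) and Mdm2 -0.39 ± 0.15 (adjusted p 0.164), and neither passed. Sesn1 passed without batch 5 (0.47, adjusted p 0.0276) and Mdm2 without batch 4 (-0.50, adjusted p 0.0278). In batches 2 and 3 alone both passed, Sesn1 at 0.48 (adjusted p 2.19e-05) and Mdm2 at -0.61 (adjusted p 1.05e-07). The gastrin arrays of these 2 batches at 1 to 2 h have high scores, unlike their controls. So do those of batch 2 at 10 and 14 h and of batch 3 at 14 h. The part of the score in these 2 differences was not tested.

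Without any stimulus, Ccng1 was the 1 of 6 genes that changed over the course, beside 12.4% of all probes. Untreated cells of batches 2 and 3 at 8, 10 and 14 h were set against those at 0, 0.25 and 0.5 h. Ccng1 read 12.21, 12.11 and 12.06 late in batch 2, against 11.93, 11.69 and 11.70 early, and 12.18, 12.30 and 11.80 late in batch 3, against 12.07, 11.88 and 11.60 early. Late arrays were all above the early ones in batch 2 and overlapped them in batch 3. Ccng1 rose by 0.30 ± 0.06 (SE), 1.23-fold, with an adjusted p of 0.00133 in limma. Mdm2 was 0.13 higher late (adjusted p 0.0881), Sesn3 0.18 (adjusted p 0.305) and Sesn2 -0.13 (adjusted p 0.114), and none of these passed.

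**Figure D3:**
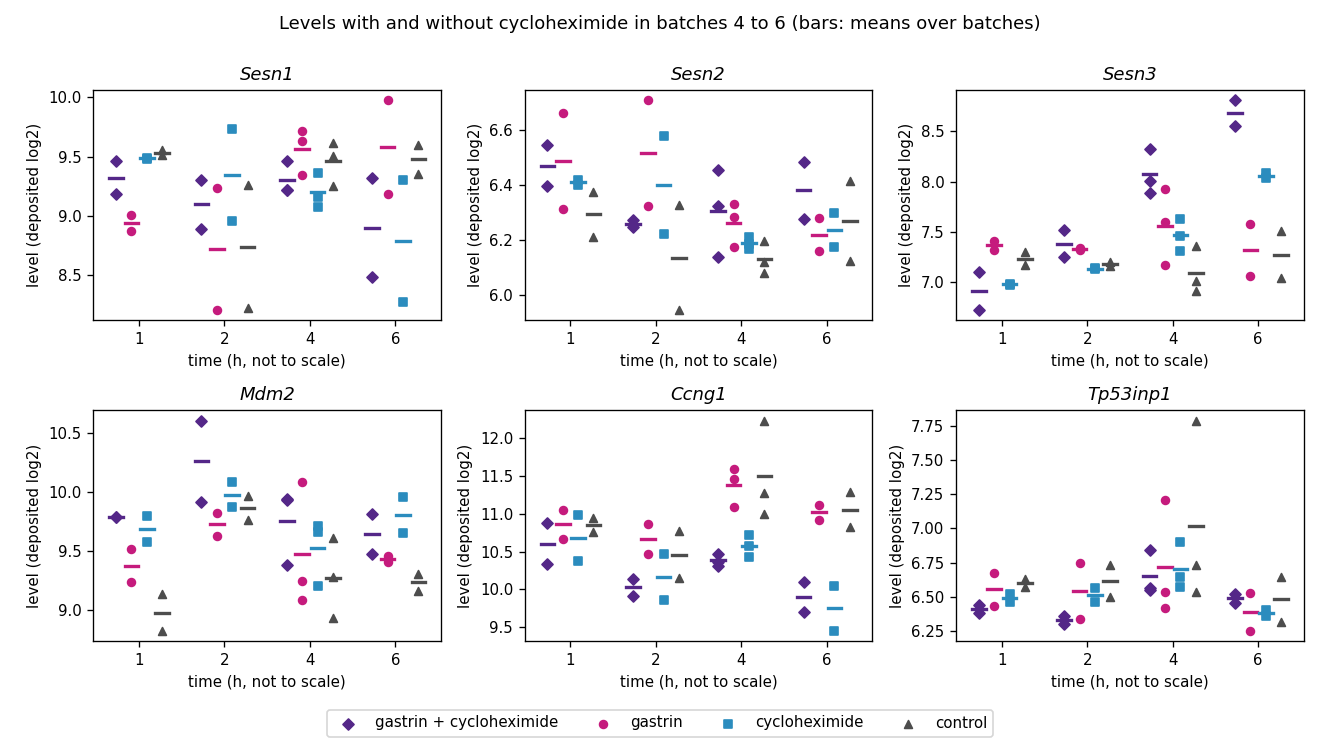
Levels on the deposited log2 scale (vertical axes) at 1, 2, 4 and 6 h (horizontal axes) in batches 4 to 6 with gastrin and cycloheximide, gastrin, cycloheximide or neither. Points are batches and bars are means over batches. At 4 and 6 h Ccng1 lay between 9.46 and 10.72 with cycloheximide, below all controls at 10.82 to 12.23, and Sesn3 was highest at 6 h with gastrin and cycloheximide, at 8.56 and 8.81.

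Cycloheximide alone lowered Ccng1 and Sesn1 and raised Sesn3 and Mdm2 by 4 to 6 h. It was compared with the control of the same batch and time in batches 4 to 6, and these controls are shared with the gastrin comparisons above. At 1 to 2 h, 1 of 6 genes was called, beside 11.5% of all probes, and at 4 to 6 h, 4 of 6, beside 23.3% of all probes.

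Ccng1 at 4 h read 10.43, 10.58 and 10.72 with cycloheximide in batches 4, 5 and 6, against 10.99, 11.27 and 12.23 in controls. At 6 h it read 9.46 and 10.05 with cycloheximide in batches 4 and 5, against 10.82 and 11.29 in controls. Every array with cycloheximide lay below every control. Ccng1 fell by 1.07 ± 0.12 (SE, n = 5 pairs), 0.475-fold, with an adjusted p of 1.32e-07 in limma, and it stayed called without any 1 batch, between -1.15 and -0.96. At 1 to 2 h its difference was -0.23 (95% interval -0.52 to 0.049, adjusted p 0.320). The change between the windows, -0.84 ± 0.18 (SE), had an adjusted p of 0.00477 in limma, and adding the array score to the fit gave -0.65 and an adjusted p of 0.0675.

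Sesn1 at 4 h read 9.16, 9.36 and 9.08 with cycloheximide in batches 4, 5 and 6, against 9.62, 9.51 and 9.26 in controls. At 6 h it read 8.27 and 9.30 with cycloheximide in batches 4 and 5, against 9.35 and 9.60. Sesn1 was lower in 5 of 5 pairs and fell by 0.43 ± 0.12 (SE), 0.741-fold, with an adjusted p of 0.00875 in limma. The 6 h array of batch 4 with cycloheximide has a high score and gave the largest difference, -1.08. Without arrays of high score the change was -0.34 with an adjusted p of 0.0150, while without batch 4 it was -0.21 (adjusted p 0.189) and without batch 5 -0.57 (adjusted p 0.0604). At 1 to 2 h the difference was 0.28 (adjusted p 0.210), made up of -0.078 and -0.022 at 1 h and of 0.74 and 0.48 at 2 h, against controls of high score.

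Sesn3 at 4 h read 7.46, 7.63 and 7.31 with cycloheximide in batches 4, 5 and 6, against 7.36, 7.01 and 6.91 in controls. At 6 h it read 8.08 and 8.03 with cycloheximide in batches 4 and 5, against 7.51 and 7.04. The 6 h arrays with cycloheximide lay above all controls, and Sesn3 was higher in 5 of 5 pairs. It rose by 0.54 ± 0.15 (SE), 1.45-fold, with an adjusted p of 0.00679 in limma. Without batch 5 the difference was 0.36 with an adjusted p of 0.284. At 1 to 2 h Sesn3 was lower in 4 of 4 pairs, by differences of -0.31 to -0.030, with a mean difference of -0.15 (adjusted p 0.647).

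Mdm2 at 1 h read 9.57 and 9.79 with cycloheximide in batches 4 and 5, against 8.82 and 9.13 in controls. At 2 h it read 10.09 and 9.87 with cycloheximide, against 9.97 and 9.76 in the controls of high score. Over these 4 pairs Mdm2 rose by 0.41 ± 0.14 (SE), 1.33-fold, with an adjusted p of 0.0491 in limma. Leaving out arrays of high score removes both 2 h controls, so that this window keeps controls at 1 h only. The difference was then 0.69 (adjusted p 0.00219 in limma), which is not a value for the whole window. The call over the 4 pairs was lost without batch 4 (0.39, adjusted p 0.344), without batch 5 (0.43, adjusted p 0.301), with both 1 h title series averaged (0.35, adjusted p 0.0855) and with additive blocks (0.41, adjusted p 0.0975). At 4 to 6 h it was higher in 5 of 5 pairs, by 0.051 to 0.65, and rose by 0.38 ± 0.12 (SE), 1.30-fold, with an adjusted p of 0.0216 in limma. This later call was lost without batch 4 (0.33, adjusted p 0.212), without batch 5 (0.32, adjusted p 0.256) and with the array score as a covariate (0.18, adjusted p 0.0668).

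Tp53inp1 at 4 to 6 h differed by -0.23 ± 0.10 (SE, adjusted p 0.0986) with cycloheximide, and most of that came from batch 6, at 6.90 with cycloheximide against 7.79 in its control. The other 4 pairs ran from -0.25 to 0.11, and without batch 4 the change passed, at -0.43 with an adjusted p of 0.0192. Sesn2 differed by 0.19 (95% interval 0.023 to 0.36, adjusted p 0.141) at 1 to 2 h and by 0.021 (-0.13 to 0.17) at 4 to 6 h. With both 1 h title series averaged, Sesn2 passed at 1 to 2 h, at 0.25 with an adjusted p of 0.0281.

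The change of the cycloheximide effect between the 2 windows was compared after the values were seen, and 3 of 6 genes were called, beside 8.96% of all probes. They were Sesn1 at -0.71 ± 0.18 (SE, adjusted p 0.0139), Sesn3 at 0.69 ± 0.22 (adjusted p 0.0482) and Ccng1, given above. The 2 h controls of this comparison are of high score, and without arrays of high score Sesn1 was at -0.28 with an adjusted p of 0.410. Sesn3 was then at 0.75 (adjusted p 0.127) and Ccng1 at -0.76 (adjusted p 0.0356). With the array score as a covariate all 3 calls were lost, with Sesn1 at -0.34 (adjusted p 0.297) and Sesn3 at 0.70 (adjusted p 0.127), and Mdm2 was called instead, at -0.51 (adjusted p 0.0133). With additive blocks Sesn1 (adjusted p 0.0674) and Sesn3 (adjusted p 0.0521) were lost. Without batch 5, Sesn1 was at -0.90 (adjusted p 0.240), Sesn3 at 0.55 (adjusted p 0.497) and Ccng1 at -0.81 (adjusted p 0.292), and without batch 4 Sesn1 was at -0.43 (adjusted p 0.147) and Sesn3 at 0.78 (adjusted p 0.208).

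Gastrin was next compared in cells given cycloheximide, which asks what of its effect appears while protein synthesis is blocked. At 1 to 2 h 0 of 6 genes were called, beside 0.0577% of all probes, 13 in number, so this comparison called almost nothing. At 4 to 6 h 1 of 6 was called, Sesn3, beside 2.7% of all probes.

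Sesn3 at 4 h read 7.88, 8.01 and 8.32 with gastrin and cycloheximide in batches 4, 5 and 6, against 7.46, 7.63 and 7.31 with cycloheximide alone. At 6 h it read 8.81 and 8.56 with both in batches 4 and 5, against 8.08 and 8.03. Each array with both agents lay above that of its batch and time without gastrin, by 0.38 to 1.01. Sesn3 rose by 0.61 ± 0.15 (SE, n = 5 pairs), 1.53-fold, with an adjusted p of 0.0160 in limma. The call was lost without batch 4 (0.64, adjusted p 0.216) and without batch 5 (0.72, adjusted p 0.126), which each leave few arrays for the estimate of spread. In the same batches and times without cycloheximide, gastrin minus control had a mean of 0.30 over 5 pairs. The difference between these effects, 0.31 (95% interval -0.11 to 0.74, adjusted p 0.792 in limma), was not called.

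Ccng1, the gene cycloheximide lowered most, differed by -0.057 (95% interval -0.31 to 0.20) between gastrin with cycloheximide and cycloheximide alone at 4 to 6 h. Sesn1 differed by 0.11 (-0.14 to 0.36), Sesn2 by 0.13 (-0.021 to 0.28), Mdm2 by 0.073 (-0.18 to 0.32) and Tp53inp1 by 0.013 (-0.19 to 0.21). At 1 to 2 h Mdm2 differed by 0.19 (-0.086 to 0.47), with 0.73 in batch 5 at 2 h, where the array with both agents has a high score and read 10.60, and -0.17 to 0.21 in the other 3 pairs. Sesn1 was lower in 4 of 4 pairs there, with a difference of -0.21 (-0.49 to 0.073).

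Whether cycloheximide altered the gastrin effect was tested as the difference of the 2 effects, and 0 of 6 genes were called in either window, beside 0% of all probes at 1 to 2 h and 0.2% at 4 to 6 h. At an unadjusted p under 0.05, limma counted 2468 probes at 1 to 2 h, where no adjusted call was made. Sesn2 had the lowest unadjusted p of the 6 genes at 1 to 2 h, 0.00838, with an effect lower with cycloheximide by -0.33 (95% interval -0.56 to -0.091, adjusted p 0.317). The interval for Sesn1 at 1 to 2 h, -0.30 to 0.49, still holds differences as large as its early fall.

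**Figure D4:**
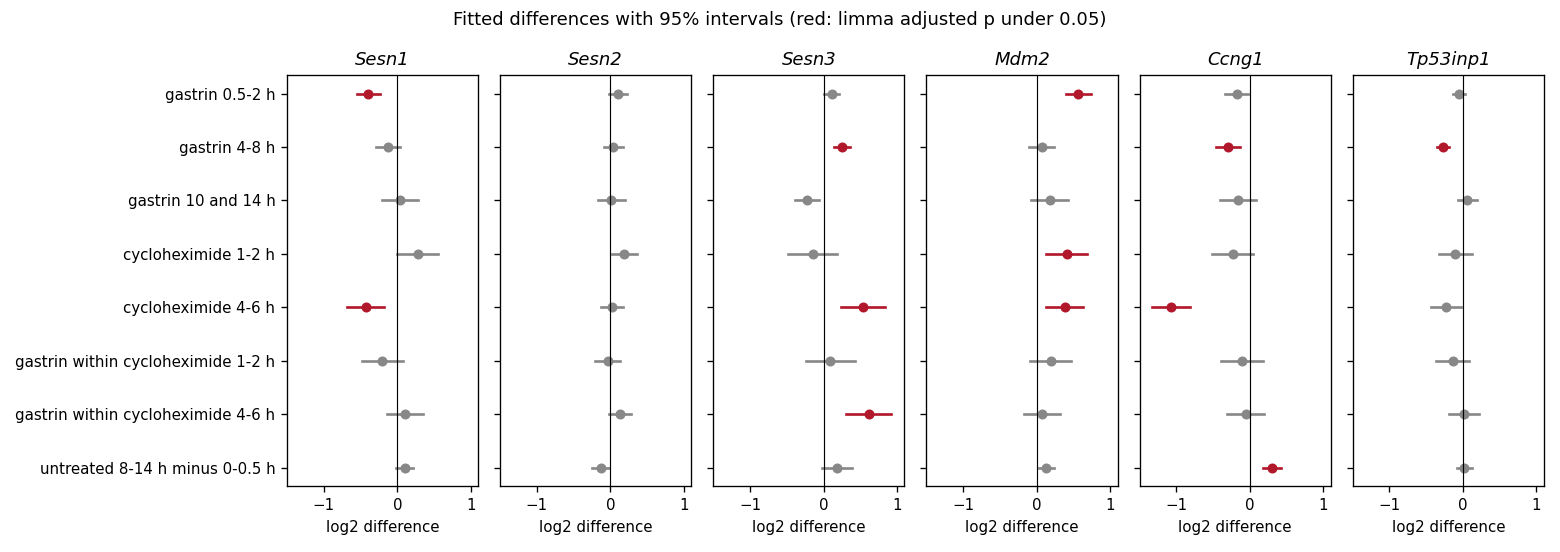
Fitted log2 differences (horizontal axes) with 95% intervals for the 6 genes in 8 comparisons (rows), red where the limma adjusted p is under 0.05 and grey otherwise. Ccng1 with cycloheximide at 4 to 6 h, at -1.07, is the largest of these differences.

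The other listed p53 targets gave a mixed picture. Of 31 listed, 20 had a probe. The shares of all probes called, beside which this and the next lists are set, were 5.07% higher and 4.84% lower for gastrin at 0.5 to 2 h, 5.98% and 6.76% at 4 to 8 h, and 3.72% and 3.61% at 10 and 14 h. With cycloheximide at 4 to 6 h they were 11.3% higher and 11.9% lower. The lists were not counted without arrays of high score. Without those arrays gastrin called 79 probes at 0.5 to 2 h, 76 higher and 3 lower, against 2234 with them. At 10 and 14 h it called 158 without them, against 1649. At 0.5 to 2 h 1 of 20 p53 targets rose and 1 fell, near the shares of all probes, namely Gdf15, a stress cytokine, by 0.70 ± 0.08 (SE, adjusted p 4.02e-07 in limma), and Xpc, a DNA damage sensor, at -0.11 (adjusted p 0.0437). At 4 to 8 h 0 rose and 7 fell, against 6.76% of all probes that fell in that comparison, and the median of the list was -0.033 beside -0.0035 for all probes. Among the 7 were Gadd45a, a growth arrest gene, at -0.38 (adjusted p 0.0440), Gdf15 at -0.32 (adjusted p 0.00788) and the nuclease gene Aen at -0.28 (adjusted p 0.00219). With cycloheximide at 4 to 6 h 2 of 20 rose and 2 fell, again near the shares of all probes (11.3% and 11.9%), with Gadd45a at 1.42 ± 0.19 (SE, adjusted p 1.24e-06), the autophagy gene Ei24 at -0.60 and Aen at -0.51. The list median there was 0.017, beside -0.011 for all probes. No measured p53 target was called for gastrin within cycloheximide in either window, beside 0.0577% of all probes at 1 to 2 h and 2.7% at 4 to 6 h. With shares that small, 0 of 20 is near what all probes gave.

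Of 15 p53 regulators, 9 had a probe. Gastrin raised 2 of 9 at 0.5 to 2 h, beside 5.07% of all probes, the p53 ligase gene Rchy1 by 0.20 (adjusted p 0.0161) and the acetylase gene Kat5 by 0.11 (adjusted p 0.0439), and at 4 to 8 h 1 of 9 fell, beside 6.76% of all probes, the damage kinase gene Atm, at -0.12 (adjusted p 0.0417). Cycloheximide at 4 to 6 h raised 3 of 9, beside 11.3% of all probes, among them Usp7, whose product stabilises Mdm2, by 0.90 ± 0.10 (SE, adjusted p 3.43e-08 in limma). Within cycloheximide at 4 to 6 h, gastrin raised the checkpoint kinase gene Chek2 by 0.88 ± 0.12 (SE, adjusted p 2.96e-05 in limma). The medians of the 9 were 0.028, -0.023 and 0.21 for gastrin at 0.5 to 2 h, gastrin at 4 to 8 h and cycloheximide at 4 to 6 h, beside -0.0051, -0.0035 and -0.011 for all probes.

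Genes of the AMPK, GATOR and mTORC1 machinery through which sestrins act were measured for 23 of 28. At 0.5 to 2 h 1 rose and 4 fell, beside 5.07% and 4.84% of all probes, with the Rag GTPase gene Rraga at 0.23 (adjusted p 0.000674) and the autophagy kinase gene Ulk1 at -0.27 (adjusted p 0.0268). At 4 to 8 h 2 rose and 2 fell, beside 5.98% and 6.76% of all probes, with the antioxidant factor gene Nfe2l2 at -0.36 (adjusted p 1.65e-06) and the autophagy receptor gene Sqstm1 at 0.22 (adjusted p 0.0124). Cycloheximide at 4 to 6 h changed Sqstm1 by -1.26 ± 0.11 (SE, adjusted p 6.13e-10) and raised Nfe2l2 by 0.65, among 4 of 23 that rose and 3 that fell, near the 11.3% and 11.9% of all probes. Their medians were 0.0092, 1.94e-05 and -0.029 in these 3 comparisons.

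FOXO factors and targets were measured for 17 of 20. At 0.5 to 2 h 4 rose and 3 fell, beside 5.07% and 4.84% of all probes, with the transcription regulator genes Cited2 at 0.43 and Bcl6 at 0.42 and the CDK inhibitor gene Cdkn1b at 0.40. At 4 to 8 h 1 of 17 rose and 1 fell, near the shares of all probes (5.98% and 6.76%). Cycloheximide at 4 to 6 h raised 5 of 17 and lowered 4, beside 11.3% and 11.9% of all probes, with Pik3ip1, a PI3K inhibitor, at 1.01 (adjusted p 1.13e-07 in limma). Gastrin within cycloheximide at 4 to 6 h changed Pik3ip1 by -0.58 (adjusted p 0.00233), the 1 of 17 that was called there, beside 2.7% of all probes. The medians of the 17 were 0.010 and -0.027 in the early and middle gastrin windows and 0.021 with cycloheximide at 4 to 6 h. Of the ATF4 targets, the stress response that in human and mouse cells also drives Sesn2, 8 of 12 rose at 0.5 to 2 h, 12 of 12 at 4 to 8 h and 9 of 12 at 10 and 14 h, against 5.07%, 5.98% and 3.72% of all probes that rose. Their medians were 0.88, 0.88 and 0.39, while Sesn2 differed by 0.10, 0.039 and 0.014 in the same windows. The Sesn2 probe is dim, with a mean of 6.26 beside array medians of 6.40 to 6.41, so its small differences say little about its response. With cycloheximide at 4 to 6 h 5 of 12 ATF4 targets rose and 2 fell, beside 11.3% and 11.9% of all probes.

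In the BTG/TOB family, Btg2's relatives, with the CCR4-NOT subunits they bind, 12 of 12 had a probe. Tob1, an antiproliferative member, rose with gastrin by 0.35 ± 0.04 (SE) at 0.5 to 2 h and by 0.60 ± 0.05 at 4 to 8 h, with adjusted p of 2.51e-06 and 1.11e-10 in limma. It also rose with gastrin within cycloheximide, by 0.74 ± 0.13 (adjusted p 0.00819) at 1 to 2 h and by 0.81 ± 0.11 (adjusted p 2.55e-05) at 4 to 6 h. Btg3 and Btg1 rose at 0.5 to 2 h, by 0.35 (adjusted p 0.00132) and 0.27 (adjusted p 3.48e-05), while 2 others of the list fell, beside 5.07% higher and 4.84% lower among all probes, and the list median was 0.082. At 10 and 14 h 0 rose and 2 of 12 fell, beside 3.72% and 3.61% of all probes, the CCR4-NOT genes Cnot2 at -0.36 and Cnot8 at -0.21. With cycloheximide at 4 to 6 h 3 of 12 rose and 2 fell, beside 11.3% and 11.9% of all probes, with Btg1 at 0.56 and Cnot6 at -0.63.

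Across the 31 pairs of one batch and time, the gastrin differences of the 6 genes were only loosely related, as Pearson correlations given as descriptions. The strongest were between Sesn3 and Tp53inp1 at -0.59 and between Ccng1 and Tp53inp1 at 0.52. Sesn1 and Mdm2 had -0.46, and the sestrins among themselves had -0.079 for Sesn1 with Sesn2, -0.16 for Sesn1 with Sesn3 and 0.24 for Sesn2 with Sesn3. Points of one batch share that batch. Arrays of high score enter the pairs of batches 2 and 3 at 1 to 2 h and at 14 h. They also enter the pairs of batch 2 at 10 and 12 h and of batches 4 and 5 at 2 h. The part of the score in these correlations, and in those of the next sentences, was not tested. Among 13324 other named genes, those whose differences over the 31 pairs were most like each of the 6 were Adm at 0.77 and Tmem50b at 0.77 for Sesn1, Xkr7 at 0.69 and Klk6 at 0.66 for Sesn2, and Sgk1 at 0.80 and Mtus1 at 0.79 for Sesn3. For Mdm2 they were Adnp2 and Mad2l1bp, both at 0.92, for Ccng1 Apaf1 at 0.85 and Nnt at 0.82, and for Tp53inp1 Etfbkmt at 0.79 and Amacr at 0.75.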

How the data were processed

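The deposited table gives log2 values of 22523 probes on 90 arrays, from 5.51 to 14.84, and the submitters' processing notes name lumi 2.4.0 as the tool with which the authors made them. No source used here says whether lumi's variance-stabilising transform or a simple log2 was applied, so differences of dim probes need not equal log2 ratios of intensity. Scanner intensities were not analysed here, so signal over background is unknown and the number of arrays limits the precision. Probe symbols came from the platform annotation, with 13793 probes under 1 symbol, 0 under several and 8730 under none. Batch, time and stimulus came from the labels.

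Tests used limma 3.58.1 in R 4.3.3 (lmFit and eBayes) on the deposited values, with Benjamini-Hochberg adjustment over all probes, a threshold of 0.05 and 1 block for each batch at each time (a replicate block). Technical repeat arrays of batch 6, whose deviations correlated at 0.953, were averaged, as were the 1 h arrays of a batch in the gastrin fit. The cycloheximide fit took only the numbered series at 1 h. The gastrin fit had 20 residual degrees of freedom, the cycloheximide fit 21 and the untreated fit 10. The fits treat pairs of one batch as independent, and can understate the error of effects that vary by batch. The pairing comes from the labels' batch, and deviations of control and gastrin samples correlated at 0.199 to 0.923 within batches.

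The genes, the lists and the alternatives were chosen with earlier results of these data known. All listed genes were named in each comparison, up to 3 called genes of largest change per list, and 2 genes of most similar pattern per gene. The code was tested on simulated data. Marker lists for ductal and neuroendocrine cells were also counted, with 2 of 5 and 7 of 7 measured. With gastrin at 0.5 to 2 h, 4 to 8 h, and 10 and 14 h, 1, 1 and 2 of 2 ductal markers fell and 0 rose. In the same windows 0, 2 and 0 of 7 neuroendocrine markers rose and 2, 0 and 0 fell, and 2, 5 and 2 of 10 acinar markers rose and 0, 1 and 0 fell. All probes had 5.07%, 5.98% and 3.72% higher and 4.84%, 6.76% and 3.61% lower. With cycloheximide at 4 to 6 h, beside 11.3% higher and 11.9% lower, 3 acinar and 1 neuroendocrine markers rose, and 1 acinar, 1 neuroendocrine and 1 ductal marker fell. In these 4 comparisons 0 of 4 fibroblast and 0 of 3 immune and endothelial markers were called. The part of these markers in the results was not tested.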

Additional observations from a re-analysis of the deposited data

Results flagged for a closer look

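Of 48 groups of 4 or 5 samples tested for a sample far from the others, 4 were flagged, and chance alone flags about 1 in 20. Tp53inp1 in batch 6 at 4 h stood apart with gastrin, at 7.21 against 6.42 to 6.53 in the other batches, and in the control, at 7.79 against 6.53 to 6.80. Sesn2 with gastrin at 6 h was 6.28 in batch 4, against 6.15 to 6.17 in the others. Sesn3 with gastrin at 1 h was 7.58 in batch 3, against 7.24 to 7.27 in the others.

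Effects that differed between time windows by a limma test of the difference were those of gastrin on Sesn3, -0.34 late minus early, and of cycloheximide, later minus earlier window, on Sesn1 (-0.71), Sesn3 (0.69) and Ccng1 (-0.84). The 2 arrays of batch 3 at 12 h whose labels contradict each other were outside every comparison. One of them read 8.37 for Sesn3, above the highest of 35 controls at 8.32, and the other 10.09 for Mdm2, above the highest control at 9.97.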

How the results depend on the processing

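Of 990 gene values recomputed under other settings, 924 kept their side of the threshold, 49 lost a call, 17 gained one and 0 called values changed sign, while 44 uncalled ones did. Most of the 990 belong to values not called as reported, and only called ones could lose a call. The 924 therefore does not measure how well the calls held. Of 167 counts of called genes, 135 stayed within 1.5 times the reported count. Without the replicate block that pairs samples of one batch and time, the counts were 1 for gastrin at 0.5 to 2 h against 2 reported, 0 at 4 to 8 h against 3, 0 late minus early against 1, 0 for cycloheximide at 1 to 2 h against 1, 2 at 4 to 6 h against 4 and 0 for its change between windows against 3. With additive batch and time they were 0 late minus early, 0 for cycloheximide at 1 to 2 h and 1 for its change between windows, and Sesn3 at 4 to 8 h of gastrin also lost its call (adjusted p 0.0669 in limma). Without arrays of high score they were 0 for gastrin at 0.5 to 2 h, 0 late minus early and 1 for the change between cycloheximide windows, and with the score as a covariate 3 late minus early and 1 for that change, which was Mdm2 and none of the 3 reported genes. Batches 2 and 3 alone gave 2 at 10 and 14 h against 0 and 3 late minus early, and array weights 3 late minus early. Leaving out 1 batch in turn gave 1 to 3 for gastrin at 0.5 to 2 h, 0 to 1 at 10 and 14 h, 0 to 2 late minus early, 0 to 1 for cycloheximide at 1 to 2 h, 1 to 4 at 4 to 6 h, 0 to 1 for gastrin within cycloheximide at 4 to 6 h and 0 to 3 for the change between windows. The untreated comparison has 2 batches, so leaving out 1 left no residual degrees of freedom and was not run. The cause of these changes was not tested.

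Counts over all probes moved more. Gastrin called 2234 probes at 0.5 to 2 h (79 without arrays of high score to 5981 in batches 2 and 3 alone), 2870 at 4 to 8 h (329 to 3715), 1649 at 10 and 14 h (30 to 3612) and 831 late minus early (6 to 2014), each of the last 3 from no replicate block to batches 2 and 3 alone. Cycloheximide called 2600 at 1 to 2 h (652 to 2885), 5242 at 4 to 6 h (2829 to 5641) and 2019 for the change between windows (22 to 2411), each lowest without batch 5. Gastrin within cycloheximide called 13 at 1 to 2 h (0 to 18) and 607 at 4 to 6 h (195 to 828), and the difference made by cycloheximide 45 at 4 to 6 h (1 to 70) and 0 at 1 to 2 h (0 to 3). Centring on 1000 stable probes moved the share of calls that were higher from 51.2% to 62.2% for gastrin at 0.5 to 2 h, from 50.8% to 63.8% at 10 and 14 h, from 48.7% to 61.8% for cycloheximide at 4 to 6 h and from 49.4% to 60.2% for the change between windows.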

Other observations

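The 2 arrays of batch 3 at 12 h that entered no comparison had array scores of 0.096 and 0.544, the second over the limit of 0.160. The first read 10.08 for Sesn1, 6.25 for Sesn2, 8.37 for Sesn3, 9.79 for Mdm2, 11.92 for Ccng1 and 6.86 for Tp53inp1. The second read 9.81 for Sesn1, 6.30 for Sesn2, 7.70 for Sesn3, 10.09 for Mdm2, 11.74 for Ccng1 and 6.81 for Tp53inp1.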
